A study of Homo sapiens with 15 samples.

Results

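Antisense long non-coding RNAs were followed across 4 steroid treatments of ZR-75-1 cells, a human line grown from a breast carcinoma that expresses the estrogen receptor. The members are genes whose platform symbol ends in -AS and a number, which marks a transcript named after a gene or locus to which it is antisense, in most cases a protein-coding gene. The platform annotation pairs 464 probe sets with such symbols, and the probe set with the highest mean over the arrays was taken for each gene. This gave 449 antisense genes among 14361 named genes, and RefSeq classes 443 of them as long non-coding RNA and 6 as antisense RNA. Neither strand nor position of the probes is stated by the annotation used here, so each probe set is described by the gene that the annotation pairs with it.

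Total RNA was measured on 15 Affymetrix arrays. Cells in serum-containing growth medium received vehicle, 0.1% ethanol, or 10 nM MPA, PROG, DHT or DEX for 6 h, with 3 arrays in each of the 5 groups. The vehicle arrays are also called untreated, and no solvent is named for the compounds. By the usual reading of the abbreviations, MPA is the synthetic progestin medroxyprogesterone acetate, PROG is progesterone, DHT is the androgen dihydrotestosterone and DEX is the synthetic glucocorticoid dexamethasone. All groups are the same cell line, and the labels do not tie the arrays of a group to separate cultures. The p-values therefore rest on array-to-array spread, which could be technical only. The design compares gene profiles set by MPA with those set by the other 3 compounds.

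Antisense long non-coding RNAs are transcribed from the strand opposite to a gene. Many begin close to the start of the sense gene and run away from it, sharing a bidirectional promoter, and others lie across an intron, an exon or the end of the gene. Single members have been described as scaffolds, as regulators of the sense gene in cis and as RNAs with roles unrelated to it, and DSCAM-AS1 is known as an abundant RNA of estrogen receptor-positive breast tumours. The steroid receptors are ligand-activated transcription factors, and the progesterone, androgen and glucocorticoid receptors bind closely related DNA motifs.

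The promoter windows of 4 members are shown because these genes carry the changes described further on. ARHGEF26-AS1 was higher with both progestins, TSPEAR-AS2 and LIN28B-AS1 changed with DEX, and DIAPH3-AS1 has the steroid receptor motif TGTTCT in 1 of its windows. Each window is 300 bases of RefSeq sequence, build GRCh38.p14, from 250 bases before to 50 bases after an annotated start, printed in the direction of the antisense gene. Capitals mark GGGCGG or CCGCCC, the GC box motif of Sp family factors, and TGTTCT or AGAACA, the 6-base core shared by the 3 receptors. The windows are chr3:154121161-154121460 on the minus strand, chr21:44516965-44517264 on the plus strand, chr6:104940478-104940777 on the minus strand and chr13:60013053-60013352 on the plus strand, in the order given.
ARHGEF26-AS1: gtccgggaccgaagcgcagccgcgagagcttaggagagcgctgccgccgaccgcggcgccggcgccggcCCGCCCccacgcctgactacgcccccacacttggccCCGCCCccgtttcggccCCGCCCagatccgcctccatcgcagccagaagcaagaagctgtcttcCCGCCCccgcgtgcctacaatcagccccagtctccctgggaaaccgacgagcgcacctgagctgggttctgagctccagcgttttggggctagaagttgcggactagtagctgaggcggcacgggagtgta
TSPEAR-AS2: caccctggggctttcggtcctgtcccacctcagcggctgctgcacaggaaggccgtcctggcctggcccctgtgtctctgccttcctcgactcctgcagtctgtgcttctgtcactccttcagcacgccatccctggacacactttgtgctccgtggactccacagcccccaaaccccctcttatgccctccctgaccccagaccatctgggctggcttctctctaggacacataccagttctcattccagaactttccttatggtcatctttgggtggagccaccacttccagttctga
LIN28B-AS1: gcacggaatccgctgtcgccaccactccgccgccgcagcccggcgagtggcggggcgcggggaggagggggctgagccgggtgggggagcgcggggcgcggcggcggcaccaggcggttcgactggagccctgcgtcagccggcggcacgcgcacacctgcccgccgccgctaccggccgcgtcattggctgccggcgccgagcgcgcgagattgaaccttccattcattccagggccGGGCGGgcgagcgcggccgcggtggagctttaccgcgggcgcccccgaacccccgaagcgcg
DIAPH3-AS1: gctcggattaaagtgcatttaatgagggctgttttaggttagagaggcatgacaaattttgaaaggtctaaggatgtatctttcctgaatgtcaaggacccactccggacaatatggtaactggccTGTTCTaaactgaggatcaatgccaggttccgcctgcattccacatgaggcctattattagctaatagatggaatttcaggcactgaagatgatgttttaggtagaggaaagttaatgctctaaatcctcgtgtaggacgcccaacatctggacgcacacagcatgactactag

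The ARHGEF26-AS1 window has 4 GC boxes, 33 CG dinucleotides and a GC content of 69.3%, and the LIN28B-AS1 window has 51 CG dinucleotides and a GC content of 78.0%. The TSPEAR-AS2 and DIAPH3-AS1 windows hold no GC box and 6 CG dinucleotides each. Both 6-base receptor motifs were searched on both strands. At least 1 of them was in 14.8% of all 35116 windows of the table, in 13.5% of the 394 windows of the 344 members that it holds, and in 2 of the 16 windows of the 10 held members called in any test. Those 2 windows belong to DIAPH3-AS1 and LOXL1-AS1. The called members DSCAM-AS1, ST8SIA6-AS1, DLG5-AS1 and NFYC-AS1 have no window in the table and were not searched. The palindrome of AGAACA, any 3 bases and TGTTCT was in 1 of all windows and in 0 of the member windows. GC boxes were in 45.0% of all windows and 44.4% of member windows. A match of letters is a description and not a binding site.

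Most antisense probe sets were dim. The deposited values are on the log2 scale, and the medians of the 15 arrays over all probe sets lay between 3.69 and 3.73. Of the 449 members, 177 (39.4%) had a mean over the 15 arrays at or above the array median, against 64.2% of the 14841 named probe sets. Among 427 genes named LINC and a number, which are intergenic long non-coding RNAs, the share was 19.2%, and among the 286 measured sense genes of the same name it was 71.7%. The median member mean was 3.48, against 4.80 for all named probe sets, and 32 members reached a mean of 6 or more. Values near or under the array median have little room to fall, and signals of different probe sets do not rank the amounts of their transcripts.

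**Figure D1:**
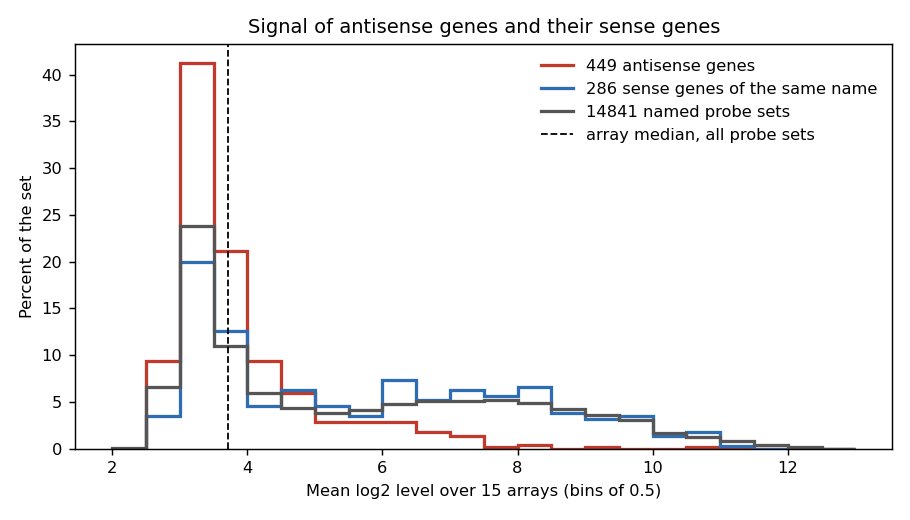
Histogram of mean log2 level over 15 arrays, in bins of 0.5 on the x axis, with the percent of each set on the y axis, for the antisense genes, their sense genes and all named probe sets. The antisense genes pile up at the left, with 39.4% at or above the dashed array median, while 71.7% of their sense genes are.

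The 10 brightest members had means between 7.10 and 10.84. They are DSCAM-AS1 at 10.84, FGD5-AS1 at 9.23, ST8SIA6-AS1 at 8.48, PITPNA-AS1 at 8.01, DHRS4-AS1 at 7.65, ZBED5-AS1 at 7.50, C8orf34-AS1 at 7.39, WAC-AS1 at 7.15, ASB16-AS1 at 7.14 and THAP9-AS1 at 7.10. DSCAM-AS1 and ST8SIA6-AS1 changed with MPA. The other 8 were called with no compound, and their changes against vehicle lay between -0.17, THAP9-AS1 with MPA and with DEX, and 0.15, ASB16-AS1 with PROG. FGD5-AS1 shows how narrow the spread of a bright member could be. It had 9.17, 9.15 and 9.24 on the vehicle arrays, 9.32, 9.24 and 9.26 with MPA, 9.24, 9.24 and 9.18 with PROG, 9.18, 9.30 and 9.26 with DHT and 9.24, 9.22 and 9.20 with DEX. All groups overlapped, and the 95% intervals of its 4 changes reached no further than 0.18 from 0.

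The same arrays carried a clear steroid response. The receptor co-chaperone gene FKBP5 rose by 2.16 ± 0.13 (SE) on the log2 scale with MPA, 1.85 ± 0.13 with PROG, 0.93 ± 0.13 with DHT and 1.26 ± 0.13 with DEX. Of the listed luminal breast markers 9 of 10 were measured, with means from 5.87 to 12.10, all above the array median. The level of ESR1, the estrogen receptor gene in this list, was 8.05 in vehicle, 7.28 in MPA, 7.53 in PROG, 7.75 in DHT and 7.85 in DEX, and its part in the antisense changes was not tested. Of the listed basal markers 3 of 5 were measured, KRT5 and KRT14 at 2.97 and 2.96 and EGFR at 7.30, and EGFR rose with MPA from 6.99 to 7.76. Fibroblast markers lay between 3.10 and 4.06 (3 of 6 measured) and blood or endothelial markers at 3.16 and 3.41 (2 of 5 measured). The mean level of the basal list was 4.30 in vehicle and 4.60 in MPA, with KRT5 and KRT14 under the array median in every group, and the part of this shift was not tested either. Correlations between arrays of a group over all probe sets were 0.997 to 0.998.

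Few antisense genes changed with any compound. A gene was called where its adjusted p was under 0.05 in limma, a linear model with moderated variances fitted to all 14841 named probe sets. With MPA 7 of 449 members were called (1.56%), 4 higher and 3 lower, against 5.93% of all named probe sets, of which 4.11% were higher and 1.82% lower. PROG gave 2 (0.445%), 1 in each direction, against 2.82% (2.43% higher and 0.391% lower). DEX gave 2, 1 in each direction, against 1.11% (0.957% higher and 0.148% lower). DHT gave 0 against 0.889% (0.775% higher and 0.115% lower), with 32 members at an unadjusted p under 0.05, 7.13% of them against 9.90% of all named probe sets. Of the 9 members called with any compound (6.65% of all named probe sets were), all had a mean at or above the array median, and within that brightness class MPA called 7 of 177 members (3.95%) against 8.53% of 9523 probe sets. There PROG and DEX each called 1.13% of the members against 4.21% and 1.68% of the probe sets, and DHT called 0 against 1.33%. The class does not match levels, since the median mean in it was 4.42 for members and 6.84 for all named probe sets. A part of brightness in the lower shares was not tested.

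**Figure D2:**
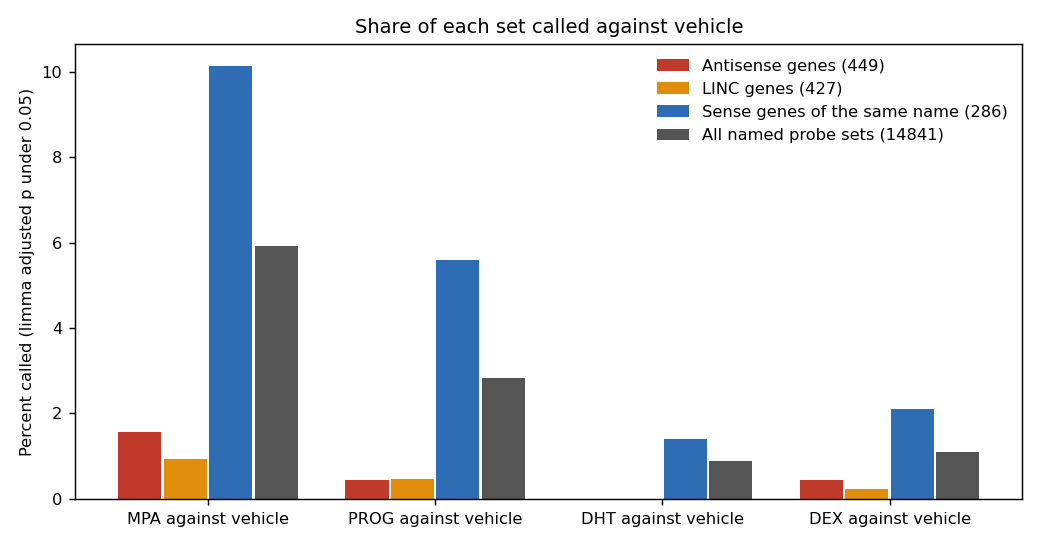
Percent of each set called against vehicle (y axis, limma adjusted p under 0.05) for the 4 compounds (x axis), with bars for antisense genes, LINC genes, sense genes of the same name and all named probe sets. The bars of the antisense genes stand at 1.56% with MPA and 0.445% with PROG and DEX and are absent with DHT, while the sense genes reach 10.1% with MPA.

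Of the 286 sense genes on the same arrays, MPA called 29 (10.1%), PROG 16 (5.59%), DHT 4 (1.40%) and DEX 6 (2.10%). The shares of all named probe sets were 5.93%, 2.82%, 0.889% and 1.11% in that order. The LINC genes gave 4 of 427 with MPA (0.937%), 2 with PROG (0.468%), 0 with DHT and 1 with DEX (0.234%). No test of the difference between these sets was made. The median change of the 449 members was -0.01 with MPA and with PROG and 0.00 with DHT and with DEX, and that of all named probe sets was 0.00 with MPA, PROG and DHT and 0.01 with DEX. Groups of arrays that did not overlap were found for 43 members with MPA, against 19.1% of all named probe sets, 47 with PROG against 15.5%, 47 with DHT against 12.7% and 40 with DEX against 13.6%. For the members these counts are 9.58%, 10.5%, 10.5% and 8.91%.

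The intervals bound what could have been missed only as far as the spread between arrays goes, which could be technical only. They are not adjusted for the number of genes or compounds. For 440 of the 449 members the 95% intervals of all 4 changes stayed within 1.5-fold in either direction. The median distance from the change to the end of its interval was 0.16 for members and 0.14 for all named probe sets. Dim probe sets can understate changes of the RNA, so for the 272 members under the array median these bounds apply to the signal.

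ARHGEF26-AS1 had the largest change of any member. It lies opposite to ARHGEF26, the gene of a guanine nucleotide exchange factor, on chromosome 3. Its log2 levels were 5.87, 6.13 and 5.83 in vehicle, 6.56, 6.51 and 6.68 in MPA, 6.29, 6.36 and 6.36 in PROG, 5.89, 6.23 and 6.16 in DHT and 6.23, 6.11 and 6.09 in DEX. The MPA arrays lay above those of all other groups and the PROG arrays above vehicle, DHT and DEX, while DHT and DEX overlapped vehicle. In bulk RNA, a change in how many cells hold an RNA and a change in its amount per cell cannot be told apart. ARHGEF26-AS1 rose 1.56-fold with MPA (0.64 ± 0.09 SE, n = 3 arrays a group, limma adjusted p = 0.000345) and 1.31-fold with PROG (0.39 ± 0.09, adjusted p = 0.0295). The changes were 0.15 ± 0.09 with DHT and 0.20 ± 0.09 with DEX, neither called. MPA exceeded DHT by 0.49 and DEX by 0.44 (limma adjusted p = 0.0052 and 0.0109). The 95% interval of MPA minus PROG was 0.05 to 0.44 (0.25, adjusted p = 0.435), unadjusted for the number of genes, and that difference was not called. The MPA call held without any 1 array of either group, whereas the PROG call was lost without vehicle 1, vehicle 3, PROG 1, PROG 2 or PROG 3, with adjusted p up to 0.132, and the difference from DEX was lost without MPA 3 or DEX 3, up to 0.055.

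ARHGEF26 itself rose with every compound. Its log2 levels were 8.43, 8.42 and 8.52 in vehicle, 9.40, 9.48 and 9.38 in MPA, 9.23, 9.26 and 9.25 in PROG, 9.04, 9.08 and 8.99 in DHT and 8.72, 8.75 and 8.88 in DEX. No 2 groups overlapped, in the order MPA, PROG, DHT, DEX, vehicle. The changes against vehicle were 0.96 ± 0.05 (SE), 0.79 ± 0.05, 0.58 ± 0.05 and 0.33 ± 0.05 in that order, with limma adjusted p from 1.57e-08 to 0.00399. In RefSeq the antisense start lies 180 bases from the nearer of the 2 annotated ARHGEF26 starts, on the opposite strand, and their 300-base windows share 279 bases, so the GC-rich sequence printed for ARHGEF26-AS1 is nearly that of its sense gene read from the other strand. Of the nearest measured protein-coding neighbours, MBNL1, a splicing regulator, rose by 0.19 ± 0.05 with MPA (limma adjusted p = 0.0257), and DHX36, a helicase, had -0.14 ± 0.07 (adjusted p = 0.333). The distances to these neighbours are not given here, and genes without a named probe set can lie between.

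DLG5-AS1, opposite to the gene of the scaffold protein DLG5 on chromosome 10, also rose with MPA. Its levels were 4.37, 4.40 and 4.26 in vehicle, 4.60, 5.15 and 4.91 in MPA, 4.56, 4.72 and 4.80 in PROG, 4.54, 4.46 and 4.54 in DHT and 4.63, 4.56 and 4.53 in DEX. Every treated array was above the vehicle arrays, and MPA 2 was the highest. The change was 0.54 ± 0.10 (SE) with MPA (1.46-fold, limma adjusted p = 0.00447), 0.35 with PROG, 0.17 with DHT and 0.23 with DEX, and only the first was called. It was not called when only the MPA and vehicle arrays were fitted (adjusted p = 0.0748). The 3 MPA arrays differed among themselves more than those of any other group (SD 0.276 against 0.0462 to 0.122). DLG5 is not among the genes with a named probe set.

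CBR3-AS1, opposite to the carbonyl reductase gene CBR3 on chromosome 21, had 7.02, 6.64 and 6.89 in vehicle and 7.21, 7.01 and 7.38 in MPA. The lowest MPA array overlapped the highest vehicle array. All arrays of PROG (7.24, 7.10 and 7.18), DHT (7.15, 7.12 and 7.12) and DEX (7.09, 7.17 and 7.11) lay above vehicle. The change of 0.35 ± 0.09 (SE) with MPA was called (limma adjusted p = 0.0393), and the like changes of 0.32, 0.28 and 0.27 with PROG, DHT and DEX were not (adjusted p from 0.102 to 0.268). No difference between compounds was called. The MPA call was lost without vehicle 2, vehicle 3, MPA 1 or MPA 3 (adjusted p up to 0.162). CBR3 had -0.19 with MPA, opposite in sign and not called (adjusted p = 0.285).

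DCST1-AS1, on chromosome 1, had 6.41, 6.28 and 6.33 in vehicle, 6.60, 6.60 and 6.72 in MPA and 6.62, 6.69 and 6.44 in PROG. Both progestin groups lay above vehicle, while DHT (6.34, 6.44 and 6.51) and DEX (6.24, 6.51 and 6.49) overlapped it. The MPA change of 0.30 ± 0.08 (SE) was called (limma adjusted p = 0.0406), and the PROG change of 0.24 ± 0.08 was not (adjusted p = 0.174). The call was lost without any 1 of the 6 arrays (adjusted p from 0.0566 to 0.148). The sense gene DCST1 was dim, with a mean of 3.45, and had a change of -0.06.

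DSCAM-AS1, the brightest member, fell with MPA and was highest with DHT. It overlaps DSCAM, a gene of a neuronal cell adhesion molecule on chromosome 21. Its log2 levels were 11.03, 11.00 and 10.84 in vehicle, 10.53, 10.66 and 10.67 in MPA, 10.75, 10.83 and 10.78 in PROG, 11.17, 11.05 and 11.07 in DHT and 10.71, 10.76 and 10.72 in DEX. The MPA arrays were below all others, the PROG and DEX arrays below vehicle, and the DHT arrays above vehicle. DSCAM-AS1 fell to 0.792 of vehicle with MPA (-0.34 ± 0.06 SE, n = 3 arrays a group, limma adjusted p = 0.00165). The changes of -0.17 with PROG, 0.14 with DHT and -0.23 with DEX were not called (adjusted p = 0.185, 0.422 and 0.0904). DHT exceeded MPA by 0.48, PROG by 0.31 and DEX by 0.37, each ± 0.06, and all 3 differences were called (limma adjusted p = 0.000138, 0.00949 and 0.00567).

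The decrease of DSCAM-AS1 with MPA and its differences of DHT from MPA and from DEX held without any 1 array and in all other fits made. The difference of DHT from PROG was lost without PROG 1 or DHT 1 (adjusted p up to 0.0595). DSCAM itself had 2.95, 2.88 and 2.84 in vehicle and 2.85, 2.88 and 2.85 in MPA, under the array medians on all arrays, and its changes lay between -0.08 and -0.03. Of its neighbours, PCP4 was dim and the protease gene BACE2, at a mean of 7.62, changed by at most 0.04 with any compound.

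ST8SIA6-AS1, opposite to the gene of a sialyltransferase on chromosome 10, also fell with MPA. It had 8.64, 8.69 and 8.62 in vehicle, 8.09, 8.39 and 8.39 in MPA, 8.46, 8.40 and 8.40 in PROG, 8.47, 8.43 and 8.65 in DHT and 8.45, 8.52 and 8.58 in DEX. The MPA arrays were below those of every other group, PROG and DEX lay below vehicle, and DHT overlapped it. The change was -0.36 ± 0.08 (SE) with MPA (0.779 of vehicle, limma adjusted p = 0.0101), -0.23 with PROG and -0.13 with DHT and with DEX, and only the first was called. MPA 1 was the lowest array, and without it the change was -0.26 and still called (adjusted p up to 0.0447 with any 1 array left out). In a fit of the MPA and vehicle arrays alone it was not called (adjusted p = 0.0788). The sense gene ST8SIA6 has no named probe set.

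TMEM254-AS1, on chromosome 10, had 4.84, 4.51 and 4.61 in vehicle and 4.50, 4.18 and 4.36 in MPA. The groups did not overlap but nearly met, and the levels of PROG, DHT and DEX lay between 4.48 and 4.69. Its change of -0.31 ± 0.08 (SE) with MPA was called (limma adjusted p = 0.0474) and was lost without vehicle 1, vehicle 3, MPA 2 or MPA 3 (adjusted p up to 0.184). The sense gene TMEM254, which starts 170 bases away on the opposite strand and encodes a membrane protein, had 0.10 with MPA, not called (adjusted p = 0.398).

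**Figure D3:**
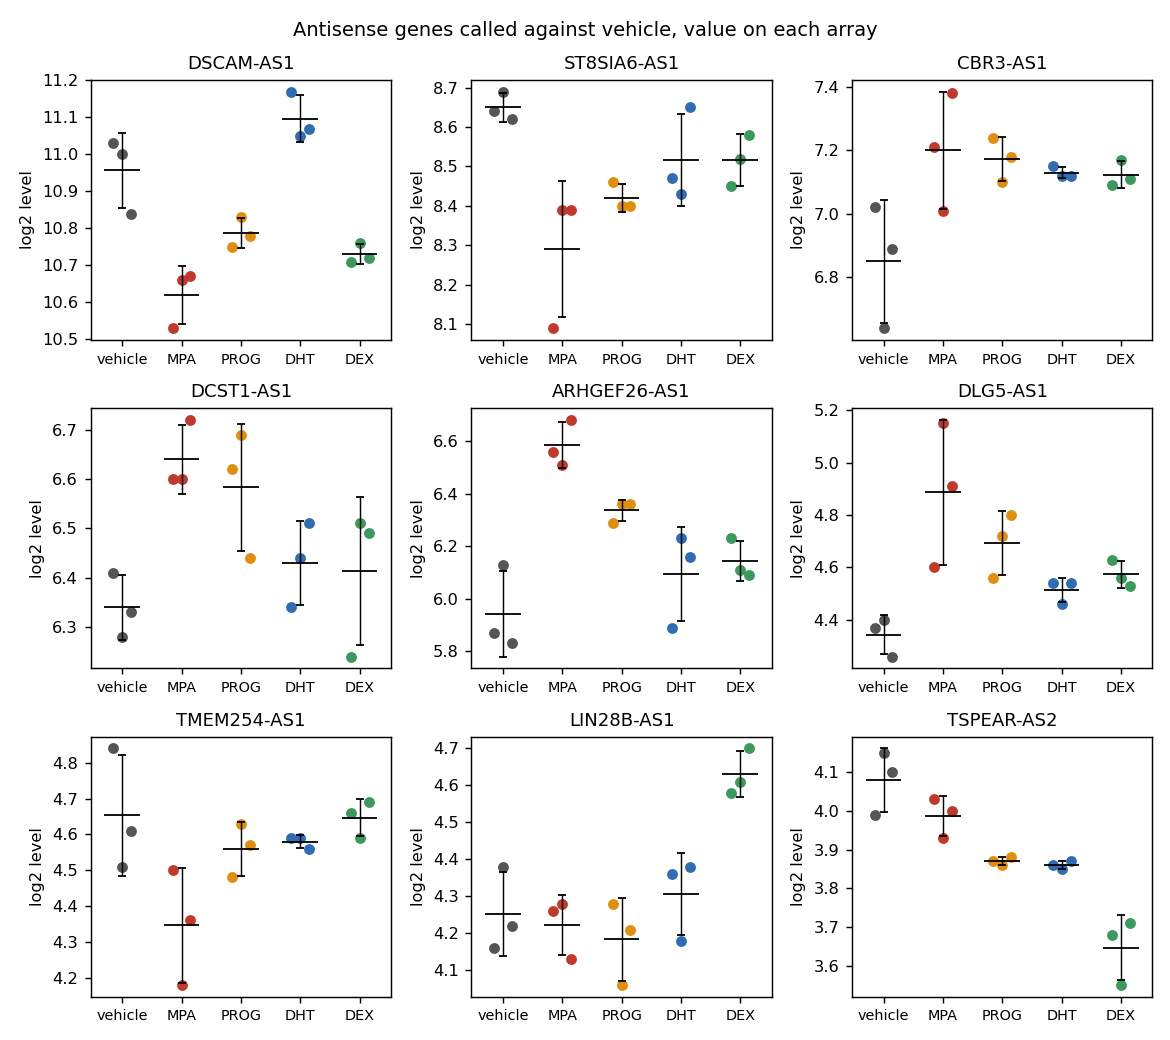
Log2 level on each array (y axis; points) for the 9 antisense genes called against vehicle, by treatment group (x axis), with the mean as a line and the SD over 3 arrays as a bar; y axes do not start at 0 and differ between panels. The MPA points of ARHGEF26-AS1 lie highest and those of DSCAM-AS1 and ST8SIA6-AS1 lowest, and the DEX points stand apart for TSPEAR-AS2 and LIN28B-AS1.

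DEX changed 2 members in opposite directions. TSPEAR-AS2, on chromosome 21 opposite to TSPEAR, a gene of an extracellular matrix protein of the inner ear and skin appendages, had 3.99, 4.15 and 4.10 in vehicle and 3.68, 3.55 and 3.71 in DEX. MPA gave 4.03, 3.93 and 4.0, PROG 3.87, 3.86 and 3.88 and DHT 3.86, 3.85 and 3.87. Only MPA overlapped vehicle, and the DEX arrays were the lowest of all and close to or under the array medians. The change was -0.43 ± 0.05 (SE) with DEX (0.741 of vehicle, limma adjusted p = 0.000405) and -0.21 ± 0.05 with PROG (adjusted p = 0.0435). With DHT it was -0.22 ± 0.05, as large as with PROG and not called (adjusted p = 0.0659), and with MPA -0.09. DEX was below MPA by 0.34 and below PROG by 0.22 (limma adjusted p = 0.0011 and 0.0494). The difference of DEX from DHT was not called.

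The DEX call of TSPEAR-AS2 held without any 1 array but not in a fit of the DEX and vehicle arrays alone (adjusted p = 0.0579). Its PROG call was lost without vehicle 2, vehicle 3 or any PROG array, and the difference of DEX from PROG without any 1 of the 6 arrays (adjusted p up to 0.187 and 0.205). Without vehicle 1 its DHT change was called (adjusted p = 0.043). TSPEAR had a mean of 3.73 and a change of 0.00 with DEX. Its neighbours LRRC3 and KRTAP10-1 were dim.

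LIN28B-AS1, on chromosome 6, starts 438 bases from LIN28B, the gene of an RNA-binding protein that blocks maturation of let-7 microRNAs, and their windows share 63 bases. It had 4.16, 4.38 and 4.22 in vehicle, 4.26, 4.28 and 4.13 in MPA, 4.28, 4.06 and 4.21 in PROG, 4.36, 4.18 and 4.38 in DHT and 4.58, 4.61 and 4.70 in DEX. The DEX arrays lay above all others, which overlapped each other. The change was 0.38 ± 0.08 (SE) with DEX (1.30-fold, limma adjusted p = 0.0269) and between -0.07 and 0.05 with the other compounds. DEX exceeded MPA by 0.41 and PROG by 0.45 (limma adjusted p = 0.00537 and 0.00574), and both differences held without any 1 array. The difference from DHT, 0.32, was not called (adjusted p = 0.0792). The call against vehicle was lost without vehicle 1, vehicle 3 or any DEX array (adjusted p up to 0.123). LIN28B was dim, with a mean of 3.05 and a change of 0.08. The neighbour HACE1, an E3 ubiquitin ligase gene at a mean of 7.13, was called with no compound.

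The compounds were given at the same dose and for the same time, so they were compared directly in 6 contrasts, which share arrays with each other. Over the 449 members 17 differences were called, in 9 members, against 1.94% of all probe set and contrast pairs and 5.65% of probe sets. By contrast, MPA against DEX gave 6 (background 4.06%), MPA against DHT 4 (3.51%), PROG against DHT 3 (1.71%), PROG against DEX 2 (1.42%) and DHT against DEX 2 (0.654%). MPA against PROG gave 0 (0.29%), with 27 members at an unadjusted p under 0.05, 6.01% of them against 8.52% of all named probe sets. In each contrast the share of members was under that of all named probe sets. MPA differs from progesterone by an added methyl and an acetoxy group, and the lack of a call between them does not show that they act alike.

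**Figure D4:**
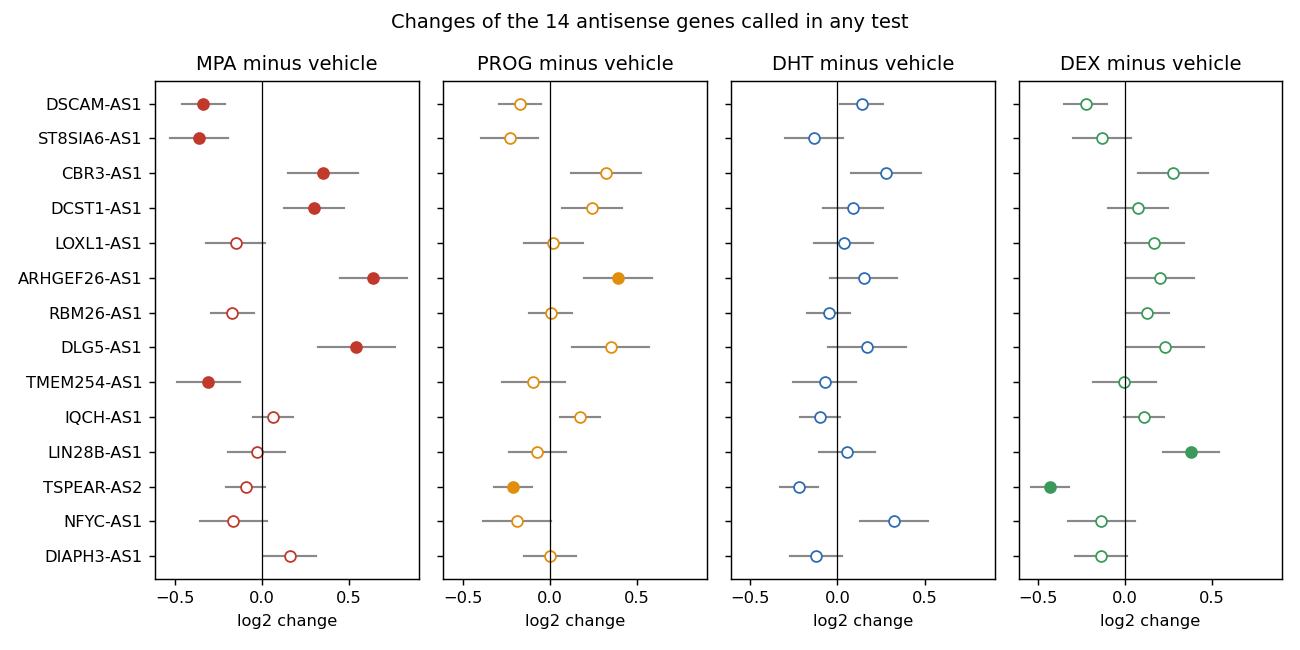
Log2 change against vehicle (x axis) of the 14 antisense genes called in any test (y axis), in a panel for each compound, with the 95% interval of the limma fit as a line and filled points for adjusted p under 0.05. ARHGEF26-AS1 and DLG5-AS1 lie farthest to the right with MPA, TSPEAR-AS2 farthest to the left with DEX, and no point is filled with DHT.

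NFYC-AS1, opposite to a subunit gene of the CCAAT-binding factor NF-Y on chromosome 1, was called only between compounds and in the F test, which asks for any difference of the 4 compounds from vehicle. It had 3.72, 3.84 and 3.73 in vehicle, 3.51, 3.80 and 3.49 in MPA, 3.53, 3.68 and 3.52 in PROG, 4.21, 3.97 and 4.08 in DHT and 3.73, 3.48 and 3.67 in DEX. The DHT arrays lay above all others, and the group mean was above the array median in vehicle and DHT and below it in MPA, PROG and DEX. DHT exceeded MPA by 0.49 ± 0.09 (SE), PROG by 0.51 ± 0.09 and DEX by 0.46 ± 0.09 (limma adjusted p = 0.00551, 0.00724 and 0.0325). The change of DHT against vehicle was 0.32 ± 0.09, with a 95% interval of 0.13 to 0.52, and not called (adjusted p = 0.149). The difference from DEX was lost without DHT 1, DHT 3, DEX 2 or DEX 3 (adjusted p up to 0.157), and the other 2 held without any 1 array.

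The other 4 members not called with any single compound against vehicle had smaller differences between compounds. RBM26-AS1 starts 54 bases from RBM26, the gene of an RNA-binding protein. It had 5.57, 5.51 and 5.52 in MPA and 5.72, 5.88 and 5.89 in DEX, with all MPA arrays below those of the other groups, and the difference of -0.30 ± 0.06 (SE) held without any 1 array (limma adjusted p = 0.00703). A dimmer second probe set of this gene, at a mean of 3.21, did not share it, and the mean of both was not called (adjusted p = 0.355).

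LOXL1-AS1, opposite to a lysyl oxidase gene of matrix cross-linking, had 6.11, 6.30 and 6.36 in MPA and 6.50, 6.71 and 6.51 in DEX, groups that did not overlap (-0.32 ± 0.08, limma adjusted p = 0.0379). Its second probe set, at a mean of 5.47, had -0.08 with MPA and 0.06 with DEX against vehicle, and the mean of both probe sets was not called (-0.23, limma adjusted p = 0.113). DIAPH3-AS1, which starts 114 bases from the gene of the formin DIAPH3, had 3.79, 3.80 and 3.87 in MPA, above all other arrays, and exceeded DHT by 0.28 ± 0.07 and DEX by 0.30 ± 0.07 (limma adjusted p = 0.0376 and 0.025). Its mean of 3.64 lies under the array median. IQCH-AS1 had 4.52, 4.44 and 4.50 in PROG and 4.10, 4.27 and 4.27 in DHT (0.27 ± 0.05, limma adjusted p = 0.0146). Leaving out single arrays lost the LOXL1-AS1 call (all but MPA 3, adjusted p up to 0.158), both DIAPH3-AS1 calls (any array for DHT, all but DEX 1 for DEX, up to 0.137 and 0.0946) and the IQCH-AS1 call (without PROG 1, PROG 3 or DHT 1, up to 0.0713).

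The F test called 7 members against 5.13% of all named probe sets: ARHGEF26-AS1, DSCAM-AS1, TSPEAR-AS2, LIN28B-AS1, NFYC-AS1, DLG5-AS1 and IQCH-AS1, with limma adjusted p from 0.000473 for DSCAM-AS1 to 0.0391 for DLG5-AS1. In all 14 members were called in at least 1 test and 435 in none. The count of the F test was 4 without DHT 1 and 4 without DEX 3.

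The antisense genes were set beside the sense genes of the same name in 294 pairs with 286 sense genes. Both means were at or above the array median in 99 pairs, only the sense gene in 112, only the antisense gene in 19, and neither in 64. A sense gene was called against vehicle in 31 pairs, where 6.65% of all named probe sets were called with any compound. With MPA the share of pairs was 10.2%, against 5.93% of all named probe sets. ARHGEF26-AS1 was the only antisense gene called in any of the 31 pairs. That is 3.23% of the 31 with MPA and with PROG, against 1.56% and 0.445% of all 449 members. The single call is therefore no lower share than that of the members at large. In 21 of the 31 the antisense gene was under the array median. Across the 30 pairs whose sense gene was called with MPA, 23 higher and 7 lower, the antisense changes had a median of 0.03 and ranged from -0.17 to 0.64. This median mixes both directions of the sense gene. Antisense and sense change had the same sign in 22 of the 30. In the pairs whose sense gene was called with PROG, DHT or DEX it was 8 of 17, 3 of 4 and 5 of 7. These counts were not tested.

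In 12 pairs, with 11 sense genes, the sense change was called and at least 1.5-fold. UNC5B, a netrin receptor gene, had the largest. Its levels were 6.46, 6.44 and 6.46 in vehicle and 8.20, 8.16 and 8.12 in MPA, a rise of 1.71 ± 0.08 (SE, limma adjusted p = 6.68e-09), while UNC5B-AS1 was dim, at 3.18, 3.23 and 3.22 in vehicle and 3.12, 3.29 and 3.07 in MPA. The transcription factor gene LEF1 rose by 1.10 with MPA, TIPARP, a poly(ADP-ribose) polymerase gene, by 1.06, the growth factor receptor gene EGFR by 0.77 and LDLRAD4 by 0.87. Their antisense genes were under the array median, with changes between -0.01 and 0.07. VLDLR-AS1, PCED1B-AS1, NAV2-AS4 and NAV2-AS5 were also under it.

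Besides ARHGEF26-AS1, the antisense gene was at or above the array median in 2 of those 12 pairs. EPB41L4A-AS1, at a mean of 5.89, had a change of 0.02 with MPA (95% interval -0.15 to 0.19) where EPB41L4A, a cytoskeletal protein gene, rose by 0.60. NEBL-AS1 had 3.77, 3.67 and 3.54 in vehicle and 3.91, 3.77 and 3.74 in MPA, a change of 0.15 (-0.07 to 0.37), where NEBL, the gene of an actin-binding protein, had 6.45, 6.38 and 6.24 and then 7.24, 7.03 and 7.27. The NEBL-AS1 groups overlapped, and the NEBL groups did not. The 2 starts lie 101 bases apart on opposite strands. Without ARHGEF26-AS1 the antisense changes of these pairs lay between -0.10 and 0.15 with MPA, with a lowest limma adjusted p of 0.325.

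**Figure D5:**
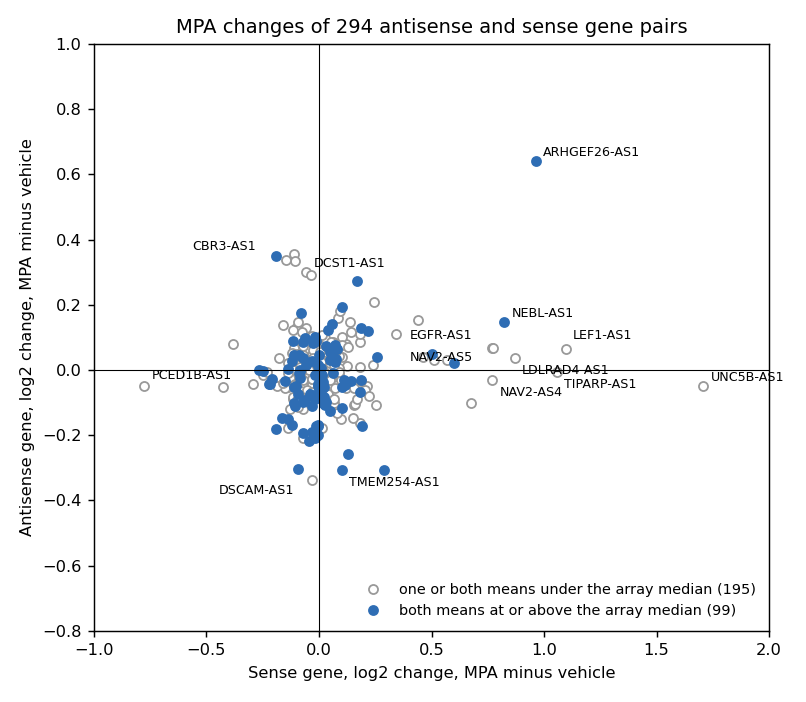
Log2 change with MPA of the sense gene (x axis) and of the antisense gene (y axis) in 294 pairs, with filled points where both means were at or above the array median (99 pairs). Only ARHGEF26-AS1 is far from 0 on both axes, and UNC5B-AS1 and LEF1-AS1 lie far to the right with antisense changes near 0.

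Across pairs the MPA changes of antisense and sense gene had a correlation of 0.136 over all 294, and 0.351 over the 99 with both at or above the array median, which fell to 0.124 without ARHGEF26-AS1. Genes are not independent replicates, and all changes share the same arrays, so these values are descriptive. In RefSeq 303 members have a start distance to their sense gene, all on the opposite strand, and 132 of these start within 1000 bases of it. Of these 132 members 53.0% were at or above the array median, against 36.8% of the 171 farther away. Over the 35 near pairs with both genes at or above the array median the correlation with MPA was 0.688, and 0.403 over 34 without ARHGEF26-AS1. Over 38 farther pairs it was -0.117. MPA gave the highest of the 4 values for the near pairs. With PROG, DEX and DHT they were 0.552, 0.328 and 0.164, and 0.254, 0.188 and -0.0026 without ARHGEF26-AS1. For the farther pairs they were -0.0831, 0.135 and -0.368. The 4 comparisons share the vehicle arrays.

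Of 39 antisense genes listed for their part in cancer work or developmental loci 22 were measured and 12 of them were at or above the array median. The list was made with earlier results of these data known, so the calls on it are descriptive and no support for the list. DSCAM-AS1, ST8SIA6-AS1 and TSPEAR-AS2 were called against vehicle, where 6.65% of all named probe sets were called with any compound. LOXL1-AS1 was called between compounds only, where 5.65% of all named probe sets were called in any contrast. The other 18 had limma adjusted p of at least 0.167 with each compound. GATA3-AS1, beside the luminal transcription factor gene GATA3, had 4.87, 5.34 and 5.04 in vehicle and 4.89, 4.79 and 4.66 in MPA, which overlapped (-0.30, 95% interval -0.55 to -0.06, limma adjusted p = 0.167). A dimmer second probe set of GATA3-AS1, at a mean of 3.89, had -0.06 with MPA (limma adjusted p = 0.844). GATA3 itself stayed between 9.99 and 10.22 on all arrays. FGF14-AS2 had changes of 0.33, 0.29, 0.31 and 0.13 with MPA, PROG, DHT and DEX, with 4.81 on MPA 3 and 4.11 and 4.17 on the other MPA arrays. CDKN2B-AS1, KDM4A-AS1, ZEB1-AS1, MIF-AS1, MCF2L-AS1 and TMPO-AS1 had means from 3.77 to 6.69 and changes between -0.12 and 0.19. AFAP1-AS1, MAPT-AS1, GAS6-AS1, TBX5-AS1, PRKAG2-AS1, ZEB2-AS1, EGFR-AS1 and the 3 measured HOX cluster members HOXA-AS3, HOXB-AS3 and HOXD-AS2 were under the array median.

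Sense symbols were matched to a set list of developmental transcription factor families, such as HOX, GATA, FOX and ZEB, which gave 14 members. The list is not complete, and MNX1-AS1, LBX1-AS1 and HAND2-AS1, for example, were not in it. Of the 14 members, 5 had a mean at or above the array median. The 14 had 0 limma calls against vehicle or between compounds. With MPA, PROG, DHT and DEX, 5.93%, 2.82%, 0.889% and 1.11% of all named probe sets were called. A set of 14 is too small to set 0 calls apart from such shares. At an unadjusted p under 0.05 there were 1 with MPA, 0 with PROG, 2 with DHT and 0 with DEX, against 17.4%, 11.6%, 9.90% and 10.4% of all named probe sets. Their changes ranged from -0.30 to 0.29.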

How the data were processed

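The deposited values are log2 expression levels per probe set, given to 2 decimals, and the submitters' processing notes name RMA, an array normalization, and Partek, with no versions. No source used here names the genome build of the annotation. Of 34878 probe sets, 14841 have exactly 1 gene symbol in the platform annotation and were tested; the others were left out. limma 3.58.1 in R 4.3.3 was fitted to the deposited log2 values of all 15 arrays with 5 group means (residual degrees of freedom 10), and 4 contrasts against vehicle, 6 between compounds and an F test were taken. p-values were adjusted by Benjamini-Hochberg over all 14841 probe sets within each contrast, with a threshold of 0.05. All contrasts against vehicle share the 3 vehicle arrays.

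The members and the gene lists were chosen with earlier results of these data known. Genes are named where they were called, were among the 10 brightest, were on a list, or had a sense gene called and changed at least 1.5-fold. An array gives no read depth, so the number of arrays limits the precision. The fit was tested on simulated data. Alternatives were the other probe set choices, scalings, a filter on dim probe sets, other variance models, fits of the compared groups alone, a replicate block and leaving out each array. Sequences and start distances are from RefSeq, build GRCh38.p14.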

Additional observations from a re-analysis of the deposited data

How the results depend on the processing

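Of 28 called changes of single members, 14 stayed called without any 1 array, 10 in every other alternative and 8 throughout. 3 were lost without any 1 of their arrays, and no change turned its direction. The 7 MPA calls became 4 with all probe sets tested and 3 with the MPA and vehicle arrays fitted alone, and 5 to 8 with 1 array left out. VPS9D1-AS1 (-0.31, adjusted p = 0.0585) was called with MPA with the replicate block, with dim probe sets left out, with quantile scaling, with trended and robust variances and without vehicle 2 (adjusted p from 0.0230 to 0.0493), and DHRS4-AS1 with dim probe sets left out and without MPA 2. The 2 PROG calls became 1 with the replicate block, with all probe sets, with quantile scaling, with trended and robust variances and with the PROG and vehicle arrays alone, where the call was a different gene, MACC1-AS1. They ranged from 0 to 2 with 1 array left out, with 0 without vehicle 3, PROG 1, PROG 2 or PROG 3. The 0 DHT calls became 1 with dim probe sets left out, TSPEAR-AS2, and ranged from 0 to 2 with 1 array left out, which called TSPEAR-AS2 without vehicle 1 and PCNA-AS1 and USP30-AS1 without DHT 3. The 2 DEX calls became 1 with the replicate block, 0 with the DEX and vehicle arrays alone and 1 to 2 with 1 array left out, 1 without vehicle 1, DEX 1 or DEX 3. DSCAM-AS1 was called with DEX with trended and robust variances (adjusted p = 0.0188) and without vehicle 3 (0.0386). The F test, with no fit of single pairs of groups, gave 7 calls, 5 with the replicate block and 4 to 8 with 1 array left out. The 17 differences between compounds became 9 with the compared groups alone, 15 with the replicate block and 11 to 22 with 1 array left out, 11 without DHT 1. Same-numbered arrays correlated between -0.054 and 0.067 in their deviations over 30 pairs, so no profile shared by number was seen. The labels do not say whether the numbers pair the samples, and these values cannot settle it. With the replicate block 5 called changes were lost: DCST1-AS1 with MPA (adjusted p = 0.0588), TSPEAR-AS2 with PROG (0.0660) and between PROG and DEX (0.0776), LIN28B-AS1 with DEX (0.0539) and NFYC-AS1 between DHT and DEX (0.0669). Scaling moved the median change by at most 0.0133. The causes of these losses were not tested.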

Other observations

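Other classes of long non-coding RNA on the same arrays were described in the same way. Of 96 divergent transcripts, named after a gene with the ending -DT, 54 had a mean at or above the array median. With MPA 3 of the 96 were called (3.13%), against 5.93% of all named probe sets. PPP3CA-DT rose by 0.63 ± 0.10 (SE, limma adjusted p = 0.000687) and KDM7A-DT by 0.39 ± 0.10 (adjusted p = 0.0310), and MAN1B1-DT had -0.19 ± 0.05 (adjusted p = 0.0440). None was called with another compound. Among 25 microRNA host genes 2 were called with MPA (8%), against 5.93% of all named probe sets. MIR181A1HG fell with MPA from 7.55 to 6.88 (-0.67 ± 0.10, limma adjusted p = 0.000634), a change larger in size than that of any antisense gene against vehicle. MIR9-3HG, at a mean of 3.55, had -0.25 ± 0.05 (limma adjusted p = 0.00355). Among 9 small nucleolar RNA host genes 1 was called with MPA, SNHG16, which rose by 0.19 at a mean of 11.49 (limma adjusted p = 0.00881). Shares in sets this small rest on 1 or 2 genes.

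Among 427 LINC genes 4 were called with MPA (0.937%), 2 with PROG (0.468%) and 1 with DEX (0.234%), against 5.93%, 2.82% and 1.11% of all named probe sets. With MPA LINC00886 rose by 0.61 (limma adjusted p = 0.00525), and LINC00160, LINC00294 and LINC02363 by 0.39, 0.24 and 0.23. LINC00473 rose with DEX by 0.50 (limma adjusted p = 0.000141), from 3.39 to 3.90, from under to above the array median. With PROG LINC00673 had 0.33 and LINC00536 had -0.30 (limma adjusted p = 0.0228 and 0.0376).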
